A study of Homo sapiens with 27 samples.

Results

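The genes described here are 46 interferon-stimulated genes, a list of genes that cells switch on after interferon. The list was set by gene name, without a cutoff on measured values. It was chosen with earlier results of these data known. All 46 were found among the 60619 gene identifiers of the count files, and 45 of them were among the 16268 genes with enough reads to test. OASL was the member left out, with between 0 and 6 reads per library. The question was whether any of the antisense oligonucleotides used in the study sets off an interferon response.

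RNA was sequenced from REH cells, an established leukemia line of B-cell precursors (BCP-ALL) with the ETV6/RUNX1 fusion. Cells were harvested 72 h after addition of medium or of an LNA GapmeR at 10 µM, taken up passively without a transfection reagent. GapmeRs are chimeric antisense oligonucleotides: locked nucleic acid (LNA) at both ends flanks a DNA core, and RNase H cuts the RNA paired with that core. The 27 libraries fell into 10 groups. Cells given medium made up 2 libraries, and cells given a non-targeting GapmeR (NTC) made up 3. GapmeR1 and GapmeR2 against lnc-TIMM21-5, GapmeR2 against lnc-NKX2-3-1, both GapmeRs against lnc-RTN4R-1 and GapmeR1 against lnc-ASTN1-1 had 3 libraries each. GapmeR1 against lnc-NKX2-3-1 and GapmeR2 against lnc-ASTN1-1 had 2 libraries each. The triplicates were treated on different days, but no source used here says that a number marks the same day in different groups. Neither medium nor lnc-NKX2-3-1 GapmeR1 had a library of replicate 3.

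Type I interferons bind the receptor IFNAR1/IFNAR2, whose kinases JAK1 and TYK2 start a phosphorylation cascade. The transcription factor complex that results, which contains IRF9, binds interferon-stimulated response elements (ISREs) in promoters and turns on antiviral genes such as the IFIT, OAS, MX and IFITM families. Foreign nucleic acid, including some synthetic oligonucleotides, can start this chain through sensors such as TLR9, which recognises DNA with unmethylated CpG, TLR7 and cGAS.

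The sequences of the GapmeRs are shown because CpG is the feature TLR9 reads. They are written 5′ to 3′ in lower case, with each CG in capitals. Which bases carry LNA was not given in the sources used here. Of the 9 oligonucleotides, 2 held a CG, and their lengths were 15 or 16 bases.
NTC: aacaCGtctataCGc
lnc-TIMM21-5 GapmeR1: aattttgcatttggta
lnc-TIMM21-5 GapmeR2: gtcactttaattttgc
lnc-NKX2-3-1 GapmeR1: tgctctgtgCGgattg
lnc-NKX2-3-1 GapmeR2: ctgatttttagtagtg
lnc-RTN4R-1 GapmeR1: gcattcatgggttaag
lnc-RTN4R-1 GapmeR2: tgctgagacatctagg
lnc-ASTN1-1 GapmeR1: taatctgccaggagtg
lnc-ASTN1-1 GapmeR2: gtctgaagtaatgga

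REH cells carried reads of most of these genes without any oligonucleotide. Levels are given as counts per 1000000 reads (CPM), on library sizes scaled by TMM. Of the 46 genes, 34 averaged at least 10 CPM, 11 lay between 1 and 10 CPM and OASL lay below 1 CPM. Per kilobase of exon, BST2, a membrane protein that tethers budding viruses, stood highest at 55.1 CPM per kb. LGALS3BP, a secreted glycoprotein, followed at 45.6 CPM per kb and PSMB8, an immunoproteasome subunit, at 41.9 CPM per kb. Several usual markers of a response sat at the low end, with RSAD2 at 0.728, USP18 at 0.366, IFI44L at 0.266 and IFI27 at 0.269 CPM per kb. The highest group mean was less than 2 times the lowest for 43 of the 45 tested genes, and the median of this ratio was 1.34.

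Interferon itself was not detectable at 72 h, the only time sampled. Earlier times were not measured, and no group was given interferon for comparison. All 21 interferon genes examined were too low to test, and 19 of them, IFNB1 included, had 0 reads in each of the 27 libraries. A count of 0 allows up to 3 reads in a library, which is 0.132 to 0.205 CPM over these libraries. This covers counting error only, since the reads carry no molecular identifiers. TLR9 had at most 1 read in a library and 0 in 25 libraries. The receptor chains were present, IFNAR1 at a median of 70 CPM and IFNAR2 at 14.2 CPM. TLR7, an endosomal sensor of RNA, had a median of 3.39 CPM.

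Adding the non-targeting GapmeR to the cells gave no called gene. Against medium, 0 of 45 members passed an edgeR adjusted p of 0.05, as did 0% of all genes tested, and 1 member had an unadjusted p under 0.05. DESeq2 also called 0. The 10 sentinel genes, picked as the usual markers of an interferon response (ISG15, IFI6, IFIT1, IFIT2, IFIT3, IFI44L, MX1, OAS1, RSAD2 and USP18), lay between 0.85-fold (ISG15) and 1.34-fold (OAS1) of medium. The largest upper limit of their 95% intervals was 2.02-fold, for USP18. For ISG15, a ubiquitin-like protein attached to other proteins in infected cells, the medium libraries had 19.4 and 16.8 CPM and the NTC libraries 15.4, 16.2 and 14.8 CPM. For MX1, a GTPase that traps viral particles, medium gave 44.2 and 44.8 CPM and NTC 44.3, 44.8 and 50.4 CPM. For MX1 the NTC libraries of replicates 1 and 2 lay close to the medium values, and that of replicate 3, at 50.4 CPM, lay above them. Medium has no replicate 3 library. For ISG15 all NTC libraries lay below the medium values without passing the test (edgeR adjusted p = 0.886).

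All GapmeR groups together against medium gave the same count. Of the 45 members, 0 were called, beside 0.529% of all genes, with 8 at an unadjusted p under 0.05 and 0 called by DESeq2. The median log2 fold change of the members was 0.078, against -0.009 over all genes. Medium was measured in only 2 libraries.

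**Figure D1:**
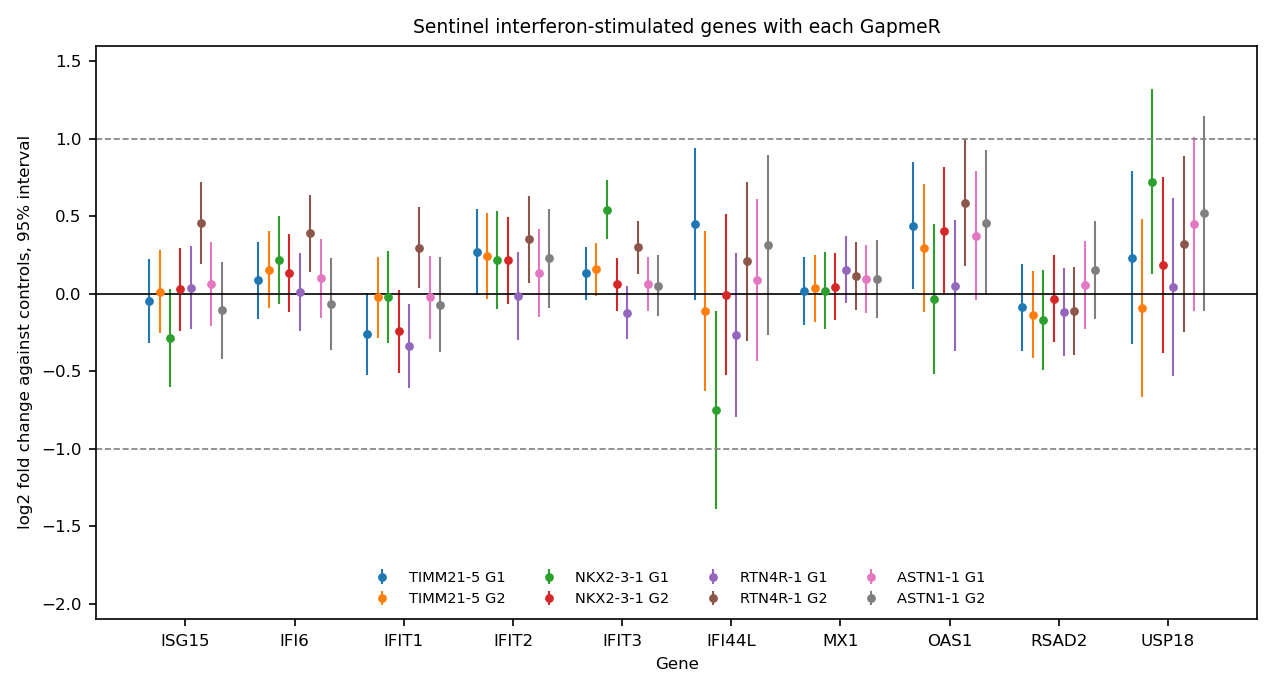
Log2 fold change of each of the 10 sentinel genes (x axis) with each of the 8 targeting GapmeRs against the 5 control libraries (y axis), with 95% intervals as bars and dashed lines at a doubling and a halving. G1 and G2 stand for GapmeR1 and GapmeR2. Upper limits pass the upper dashed line in 3 of the 80 values, all of them for USP18.

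Each of the 8 targeting GapmeRs was then set against the 5 control libraries (medium and NTC). These comparisons share their controls. Calls here are those of the main model, which leaves out the replicate number. For several GapmeRs more members were called with the number as a block, an alternative given at the end. Over the 10 sentinels and 8 GapmeRs, 4 of 80 values were called, beside 4.14% of the values of all genes over the same 8 comparisons, and the fold changes ran from 0.59 (IFI44L with lnc-NKX2-3-1 GapmeR1, not called) to 1.65 (USP18 with lnc-NKX2-3-1 GapmeR1, not called). The 95% interval stayed under a 2-fold rise for 77 of the 80 values. Over all 45 members, 346 of 360 intervals stayed under 2-fold, 23 values (6.39%) were called beside the same 4.14%, and the largest fold change was 1.87 (IFITM1 with lnc-RTN4R-1 GapmeR2). Of the 14 intervals that reached 2-fold or more, 8 belonged to ISG20, which varied with the replicate number as described below. The plot of sentinel intervals shows how narrow most of them are.

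**Figure D2:**
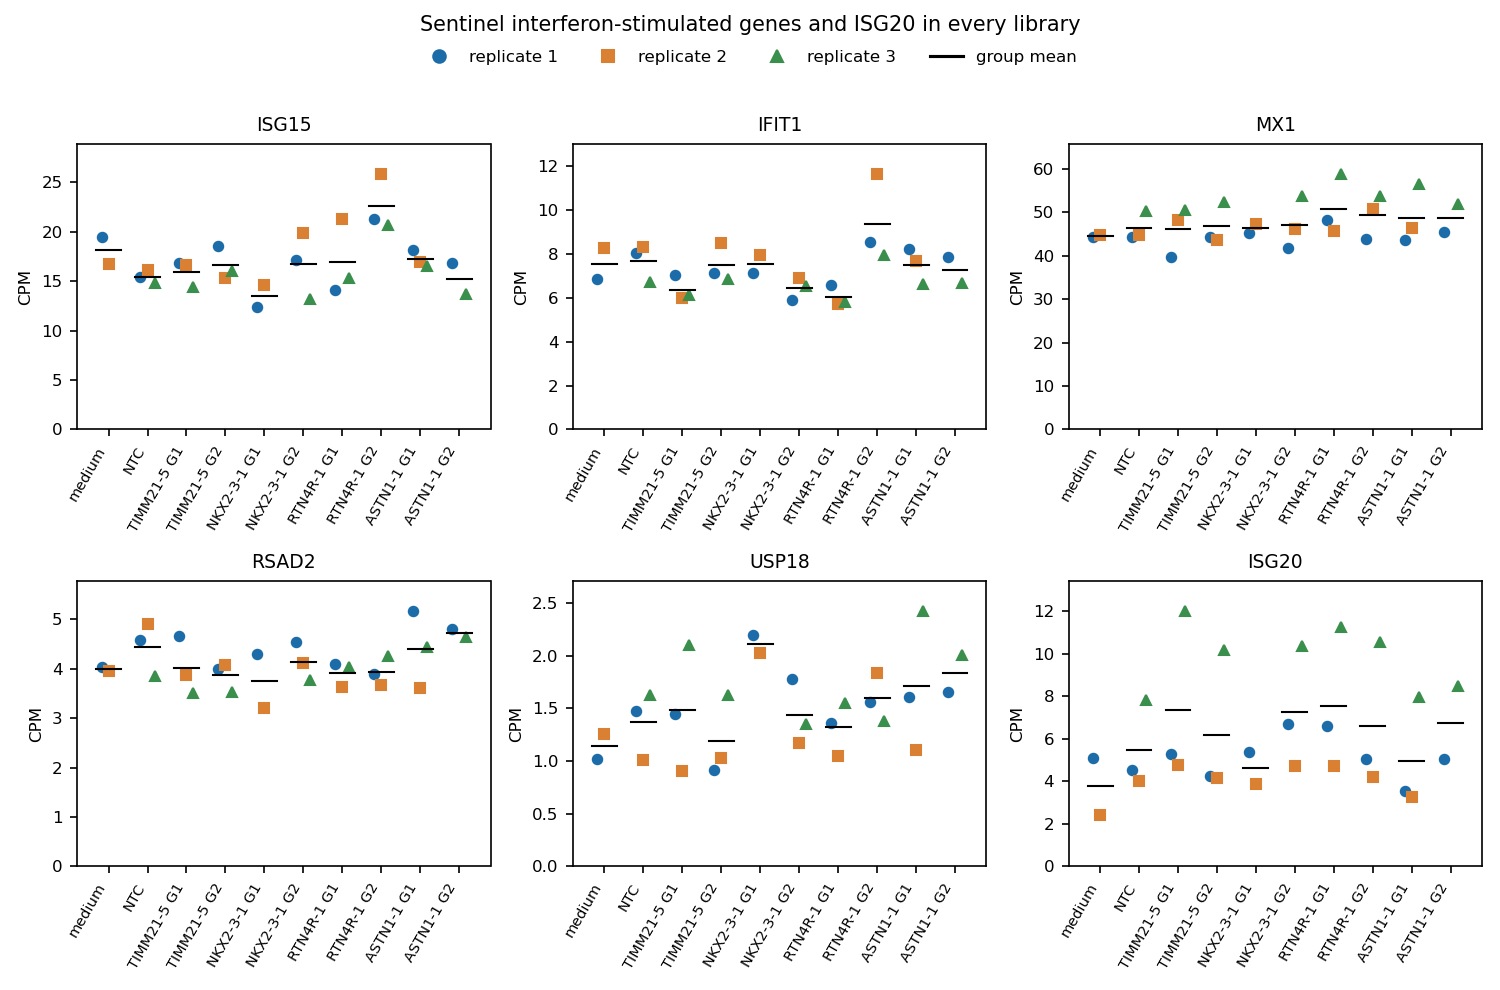
CPM (y axis, from 0) of ISG15, IFIT1, MX1, RSAD2, USP18 and ISG20 in every library of the 10 groups (x axis), with symbols for the replicate number and bars for group means. ISG20 is highest in the replicate 3 libraries, 7.82 to 12 CPM, against 2.41 to 6.67 CPM in the others.

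Among single genes, RSAD2, the antiviral enzyme viperin, lay between 3.21 and 5.16 CPM over all 27 libraries, and the control libraries had 4.04 and 3.95 CPM with medium and 4.59, 4.91 and 3.85 CPM with NTC. USP18, which removes ISG15 from proteins and damps interferon signalling, had between 16 and 49 reads per library, 0.905 to 2.42 CPM. Its libraries with lnc-NKX2-3-1 GapmeR1, 2.2 and 2.02 CPM, were above all 5 controls, which had 1.02, 1.26, 1.47, 1.01 and 1.63 CPM. That difference did not pass the test (log2 0.72 ± 0.29, SE, edgeR adjusted p = 0.0851).

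lnc-RTN4R-1 GapmeR2 was the treatment in which most members were called. In the comparison with controls 12 of 45 rose (BST2, IFI6, IFIT3, IFITM1, IFITM2, IFITM3, ISG15, LGALS3BP, OAS3, PARP12, TAP1 and XAF1) and 0 fell, beside 9.56% of all genes called, 4.31% higher and 5.25% lower. The log2 fold change was positive for 37 members and negative for 8, with a median of 0.156 against 0.005 over all genes. Without replicate 3 of this GapmeR the count was 7, all higher.

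OAS3, which makes the second messenger that activates RNase L, stood apart most clearly. Its libraries with lnc-RTN4R-1 GapmeR2 had 44.5, 49 and 44.8 CPM. The controls had 27.3 and 27.8 CPM with medium and 25.2, 28.7 and 31.6 CPM with NTC. Every other library of the series lay at or below 31.8 CPM, so the groups did not overlap (1.64-fold, log2 0.71 ± 0.07, SE, edgeR adjusted p = 8.99e-08). The other OAS genes did not pass there, OAS1 at 9.74, 11.8 and 14 CPM against 6.25 to 11 CPM in controls (log2 0.59 ± 0.20, SE, edgeR adjusted p = 0.0636) and OAS2 at 51.3, 56.4 and 52.7 CPM against 48 to 52.1 CPM. OAS1 also varied with the replicate number, and it was called when that number was fitted as a block.

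**Figure D3:**
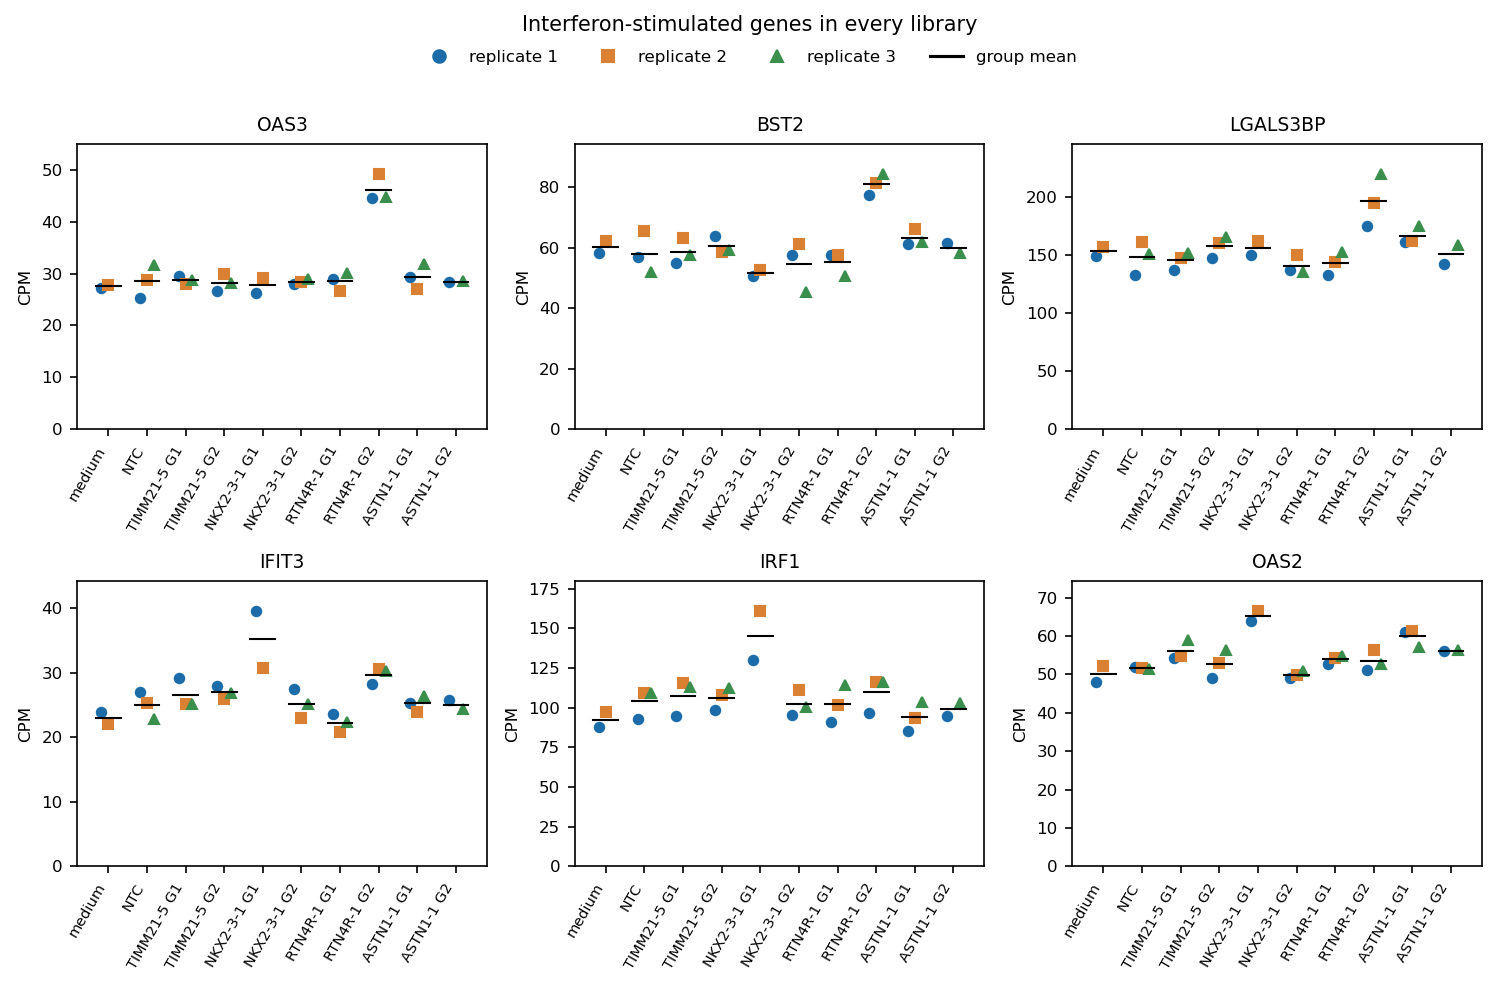
CPM (y axis, from 0) of OAS3, BST2, LGALS3BP, IFIT3, IRF1 and OAS2 in every library of the 10 groups (x axis), with symbols for the replicate number and bars for group means. OAS3 and BST2 are highest in all 3 libraries with lnc-RTN4R-1 GapmeR2, and IRF1 and OAS2 are highest in both libraries with lnc-NKX2-3-1 GapmeR1.

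Of the members at membranes, BST2 and the 3 IFITM genes rose. BST2 had 77.5, 81.5 and 84.2 CPM with lnc-RTN4R-1 GapmeR2, against 58.3 and 62.1 CPM with medium and 56.8, 65.5 and 51.8 CPM with NTC, with no overlap (1.38-fold, log2 0.46 ± 0.08, SE, edgeR adjusted p = 0.000372). The IFITM proteins block the entry of viruses at membranes. IFITM2 had 61.6, 72.9 and 73 CPM against 50.3 to 57.1 CPM in controls (1.29-fold, edgeR adjusted p = 0.00309). IFITM1 had 5.33, 6 and 8.02 CPM against 3.08 to 3.74 CPM (1.87-fold, edgeR adjusted p = 0.00345). IFITM3 had 6.55, 8.72 and 8.02 CPM against 4.83 to 6.19 CPM (1.37-fold, edgeR adjusted p = 0.0359). None of the 3 groups overlapped its controls. The IFITM genes are close copies of each other and reads that map to several places were not counted, so their levels are uncertain.

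LGALS3BP and TAP1 rose as well. LGALS3BP had 175, 194 and 219 CPM, against 150 and 157 CPM with medium and 133, 161 and 151 CPM with NTC (1.31-fold, edgeR adjusted p = 0.000805). TAP1, a peptide transporter for MHC class I loading, had 134, 148 and 158 CPM against 121 and 119 CPM with medium and 109, 116 and 130 CPM with NTC (1.23-fold, edgeR adjusted p = 0.00525). All libraries with the GapmeR exceeded all controls for both genes. The immunoproteasome genes PSMB8 and PSMB9 were not called, PSMB8 at log2 0.10 (edgeR adjusted p = 0.402) and PSMB9 at log2 0.09 (edgeR adjusted p = 0.721).

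Of the sentinels, ISG15, IFI6 and IFIT3 rose with lnc-RTN4R-1 GapmeR2. ISG15 had 21.3, 25.8 and 20.7 CPM, above the 14.8 to 19.4 CPM of the controls (1.37-fold, edgeR adjusted p = 0.0231). IFI6, a small membrane protein that inhibits flavivirus replication, had 14.3, 15.9 and 16.8 CPM against 11.1 to 13.1 CPM (1.31-fold, edgeR adjusted p = 0.0422). IFIT3, a partner of IFIT1 on viral RNA, had 28.3, 30.6 and 30.2 CPM against 22 to 26.9 CPM (1.23-fold, edgeR adjusted p = 0.0217). The other sentinels were not called in the main model, IFIT1 at 8.52, 11.6 and 7.96 CPM against 6.73 to 8.3 CPM and MX1 at 43.8, 50.7 and 53.7 CPM against 44.2 to 50.4 CPM. IFIT1, IFIT2 and OAS1 were called with the replicate number as a block. XAF1, which promotes apoptosis, and PARP12, a mono-ADP-ribosyltransferase, were the remaining members called, at 1.20-fold (edgeR adjusted p = 0.0411) and 1.27-fold (edgeR adjusted p = 0.00597).

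The promoters of these members were read for an ISRE core, GAAA followed by any 2 bases and another GAAA, on both strands, in the 250 bases before and 50 bases after each start site (RefSeq, GRCh38.p14). Of all 35116 promoters, 1255 held a match (3.57%), against 23 of the 37 members with a promoter listed (62.2%). Among the members higher with lnc-RTN4R-1 GapmeR2 it was 10 of 11, and among the other tested members 13 of 26. This split follows the calls in these same data, covers few genes and was not tested. Windows of 30 bases around the match furthest downstream are given for some of the members that rose together, on the strand of the gene, with the match in capitals.
OAS3 (chr12:112938452-112938481, plus strand): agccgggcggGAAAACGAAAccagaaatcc
BST2 (chr19:17405735-17405764, minus strand): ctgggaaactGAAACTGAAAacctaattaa
IFITM1 (chr11:314024-314053, plus strand): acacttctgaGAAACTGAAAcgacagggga
ISG15 (chr1:1013380-1013409, plus strand): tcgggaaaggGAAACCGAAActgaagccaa
IFI6 (chr1:27672266-27672295, minus strand): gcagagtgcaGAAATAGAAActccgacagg
TAP1 (chr6:32853813-32853842, minus strand): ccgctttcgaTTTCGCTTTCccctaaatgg

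These matches begin 12 bases upstream of the start site in OAS3, 124 in BST2, 6 in IFITM1, 107 in ISG15, 93 in IFI6 and 128 in TAP1. TAP1 holds the motif on its opposite strand. XAF1 had no match in its window. Matches also stand in members that were not called with this GapmeR, such as IFIT1 (chr10:89392510-89392539, plus strand: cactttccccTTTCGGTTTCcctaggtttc), and a match is a description of these letters only.

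The other GapmeR against the same lncRNA gave other values. With lnc-RTN4R-1 GapmeR1, 0 of 45 members were called against controls, beside 2.32% of all genes, with 5 at an unadjusted p under 0.05 and 0 called by DESeq2. OAS3 had 29, 26.6 and 30.2 CPM and BST2 57.7, 57.7 and 50.8 CPM, both within or below the range of the controls. IFITM1 had 5.36, 5.39 and 5.39 CPM, above all controls, at log2 0.64 ± 0.20, SE (edgeR adjusted p = 0.116).

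Tested directly, GapmeR1 and GapmeR2 of lnc-RTN4R-1 differed in 11 of 45 members, all lower with GapmeR1, beside 9.09% of all genes called and 3.82% called lower. OAS3 was 0.62 times as high with GapmeR1 as with GapmeR2 (log2 -0.69 ± 0.08, SE, edgeR adjusted p = 1.15e-06). IFIT1 had 6.56, 5.72 and 5.81 CPM with GapmeR1, below the 8.52, 11.6 and 7.96 CPM of GapmeR2 (edgeR adjusted p = 0.00453). SAMD9L, a growth-restraining antiviral factor, and PARP14, an ADP-ribosyltransferase, differed as well although neither was called for either GapmeR against controls. The lncRNA itself lay at 5.08 to 6.44 CPM with GapmeR1 and 3.4 to 5.61 CPM with GapmeR2, against 18.3 to 24.4 CPM in the controls. Both GapmeRs pooled against the controls left 3 members called, all higher (OAS3, IFITM1 and PARP12), beside 4.66% of all genes called and 1.92% called higher.

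lnc-NKX2-3-1 GapmeR1 changed members in both directions. Against controls 8 of 45 rose (DTX3L, IFIT3, IFIT5, IRF1, OAS2, PARP14, TRIM25 and XAF1) and 2 fell (HERC6 and TRIM22). Beside this, 19.7% of all genes were called, 8.14% higher and 11.6% lower, so the 10 of 45 members called (22.2%) lay near the share over all genes. The median of the members was 0.019 against -0.004 over all genes. This group has 2 libraries, and without its replicate 2 the count was 4, with 3 higher and 1 lower, the remaining library being assumed to vary like those of the other groups.

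IRF1 had 130 and 161 CPM with this GapmeR, against 87.7 and 97 CPM with medium and 92.9, 110 and 110 CPM with NTC (1.47-fold, log2 0.55 ± 0.11, SE, edgeR adjusted p = 0.000449). IFIT3 had 39.5 and 30.8 CPM, against 23.8 and 22 CPM with medium and 26.9, 25.3 and 22.9 CPM with NTC (1.46-fold, edgeR adjusted p = 0.000111). OAS2 had 63.8 and 66.4 CPM, against 48 and 52.1 CPM with medium and 52, 51.8 and 51.5 CPM with NTC (1.28-fold, edgeR adjusted p = 0.000153). In all 3 genes both libraries were above every control. XAF1 (39.8 and 38.6 CPM) and PARP14 (205 and 226 CPM) were above every control too, the controls reaching 30.7 CPM and 190 CPM (edgeR adjusted p = 0.000883 and 0.00531).

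TRIM22 and HERC6 fell. TRIM22 had 69.2 and 75.7 CPM, below the 82.8 to 88.6 CPM of the controls (0.84-fold, edgeR adjusted p = 0.00554). HERC6 had 7.33 and 6.63 CPM, below the 8.93 to 10.2 CPM of the controls (0.74-fold, edgeR adjusted p = 0.00914). ISG15 had 12.4 and 14.6 CPM, below all controls, without passing the test (log2 -0.29 ± 0.15, SE, edgeR adjusted p = 0.206). OAS3, at 26.2 and 29.2 CPM, was in the range of the controls.

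GapmeR1 and GapmeR2 of lnc-NKX2-3-1 differed in 9 of 45 members, 7 higher and 2 lower with GapmeR1, beside 17.8% of all genes called, 6.71% higher and 11.1% lower. With GapmeR2, IRF1 had 95.2, 111 and 100 CPM and OAS2 49, 50 and 50.8 CPM, close to the controls. Against controls GapmeR2 gave 0 called members beside 0.0307% of all genes, with 3 at an unadjusted p under 0.05 and 0 by DESeq2. The lncRNA lay at 0.0518 to 0.183 CPM with GapmeR1 and 0 to 0.178 CPM with GapmeR2, against 0.326 to 1.26 CPM in the controls. Both GapmeRs together left 4 members called, all higher (IFIT3, IRF1, OAS2 and XAF1), beside 8.08% of all genes called and 2.31% called higher.

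**Figure D4:**
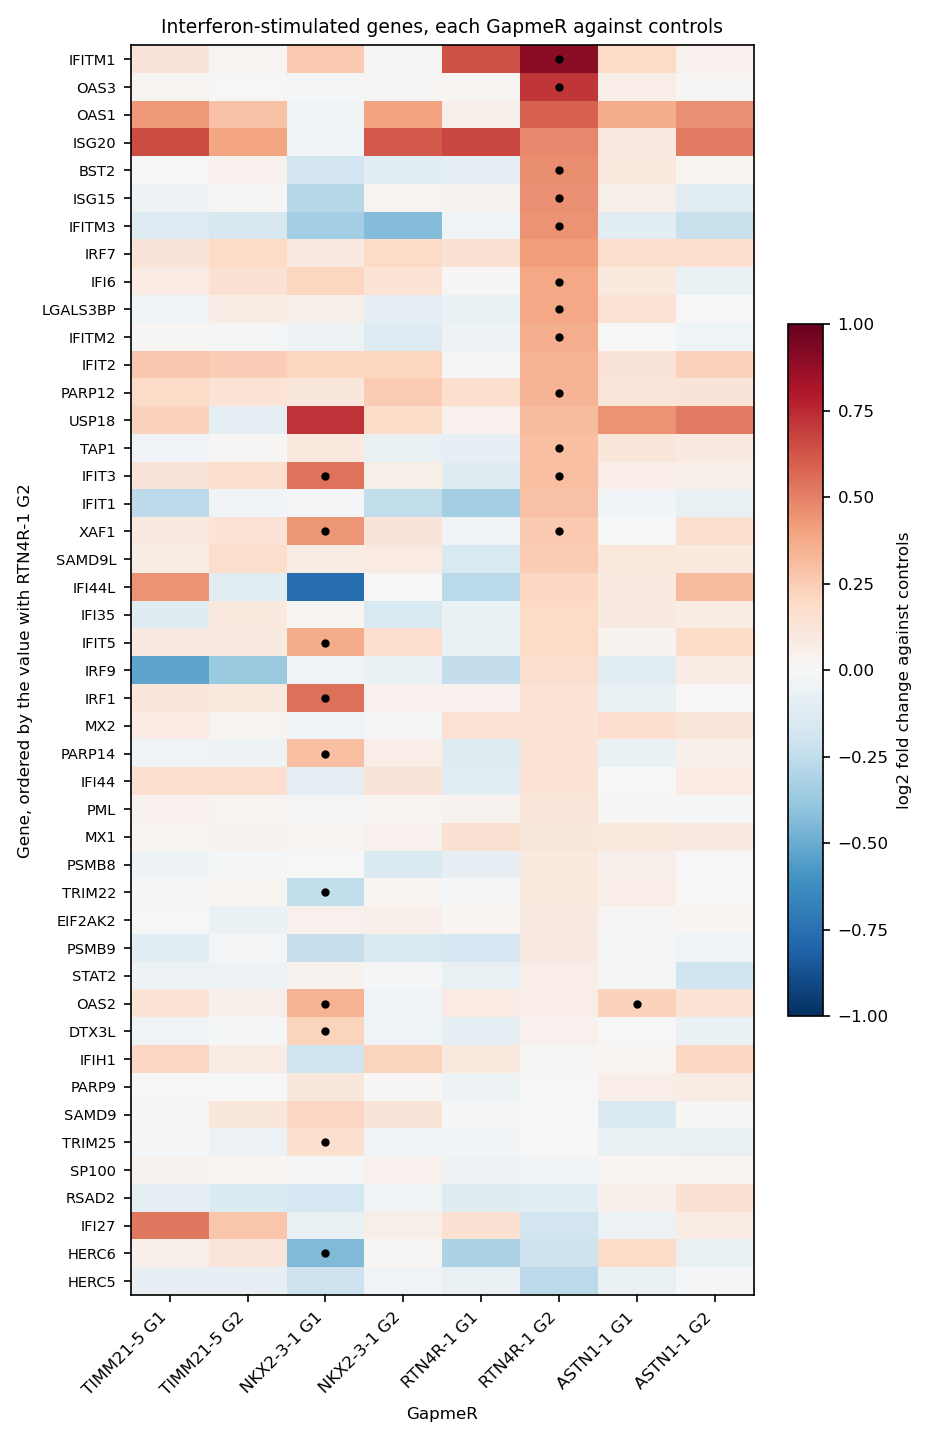
Log2 fold change against controls (colour) of the 45 tested members (rows, ordered by the value with lnc-RTN4R-1 GapmeR2) with each of the 8 targeting GapmeRs (columns), with a black dot where the edgeR adjusted p was under 0.05. The dots stand in 3 columns, 12 for lnc-RTN4R-1 GapmeR2, 10 for lnc-NKX2-3-1 GapmeR1 and 1 for lnc-ASTN1-1 GapmeR1.

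The GapmeRs against lnc-TIMM21-5 and lnc-ASTN1-1 gave 1 called member among them. With lnc-ASTN1-1 GapmeR1, OAS2 had 61.1, 61.4 and 57.2 CPM, above the 48 to 52.1 CPM of the controls (1.17-fold, log2 0.23 ± 0.05, SE, edgeR adjusted p = 0.0282), so 1 of 45 members was called beside 1.2% of all genes. That call was lost without medium replicate 1, without replicate 1 of this GapmeR or without its replicate 2. With lnc-ASTN1-1 GapmeR2 it was 0 of 45 beside 0.0184% of all genes, with 2 at an unadjusted p under 0.05, and OAS2 had 56.1 and 56.2 CPM. lnc-TIMM21-5 GapmeR1 gave 0 beside 0.209%, with 4 at an unadjusted p under 0.05, and lnc-TIMM21-5 GapmeR2 gave 0 beside 0.0676%, with 1. DESeq2 called 0 in these 3 comparisons. The GapmeRs of lnc-TIMM21-5 differed from each other in 0 members beside 0.141% of all genes and those of lnc-ASTN1-1 in 0 beside 0.553%, with 2 and 1 at an unadjusted p under 0.05 and 0 called by DESeq2. Pooled over both GapmeRs, 0 members were called for lnc-TIMM21-5 beside 0.166% of all genes and 0 for lnc-ASTN1-1 beside 0.436%, with 5 and 3 at an unadjusted p under 0.05.

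Over all 10 groups at once, 14 of 45 members differed, beside 16.1% of all genes. The 14 were BST2, HERC6, IFIT3, IFITM1, IFITM2, IFITM3, IRF1, LGALS3BP, OAS2, OAS3, PARP14, TAP1, TRIM22 and XAF1. Without replicate 2 of lnc-RTN4R-1 GapmeR2 the count was 9. Of the 45 tested members, 22 had their highest group mean with lnc-RTN4R-1 GapmeR2 and 11 with lnc-NKX2-3-1 GapmeR1, while 15 had their lowest with medium. The matching shares over all genes are not given here. Medium and lnc-NKX2-3-1 GapmeR1 lack a replicate 3 library, and several members varied with the replicate number, so these means are not matched for it.

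**Figure D5:**
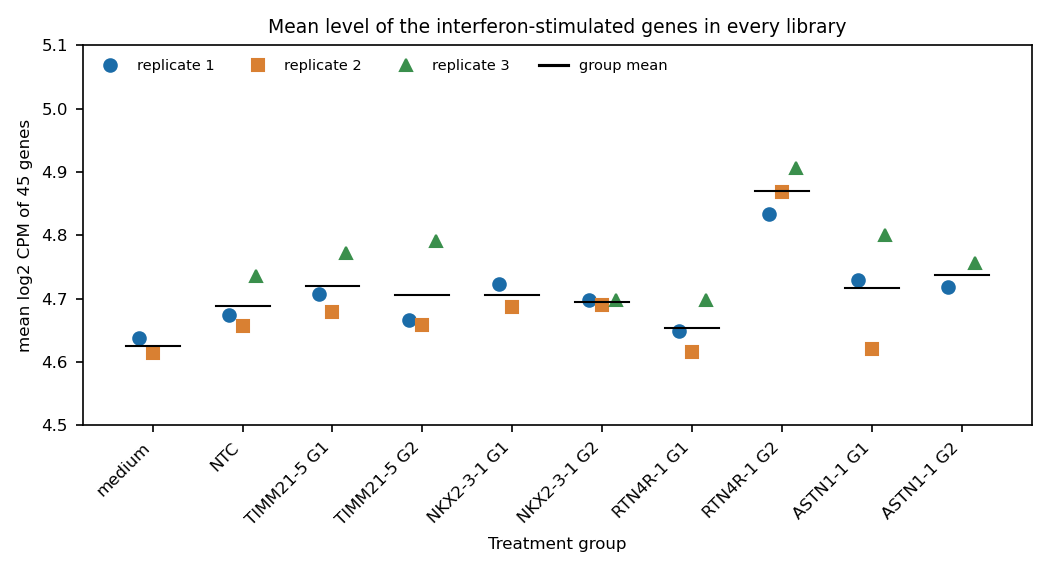
Mean log2 CPM over the 45 tested members (y axis, which does not start at 0) in every library of the 10 groups (x axis), with symbols for the replicate number and bars for group means. The 3 libraries with lnc-RTN4R-1 GapmeR2, 4.83 to 4.91, lie above every other library.

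The mean log2 CPM of the 45 members gave the order of the groups. It was 4.87 with lnc-RTN4R-1 GapmeR2, with 4.83, 4.87 and 4.91 in its libraries. The next groups, lnc-ASTN1-1 GapmeR2 at 4.74, lnc-TIMM21-5 GapmeR1 at 4.72 and lnc-ASTN1-1 GapmeR1 at 4.72, overlapped with each other and with NTC at 4.69. lnc-RTN4R-1 GapmeR1, at 4.65, and medium, at 4.63, stood lowest. Medium lacks a replicate 3 library, and in 6 of the 7 groups with all 3 replicates that library was the highest of its group, the exception being lnc-NKX2-3-1 GapmeR2, with 4.70, 4.69 and 4.70.

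The members were also compared by replicate number. Of 45 members, 32 differed between replicate numbers, beside 61.1% of all genes, so this count lay near the share over all genes. ISG20, an exonuclease that degrades viral RNA, ran from 7.82 to 12 CPM with a median of 10.3 CPM in the 8 libraries of replicate 3. The other 19 ran from 2.41 to 6.67 CPM with a median of 4.72 CPM, with no overlap. Against replicate 1 its log2 difference was 0.91 for replicate 3 and -0.37 for replicate 2. The joint edgeR test of any difference among replicate numbers gave adjusted p = 3.99e-16. OAS1 was also higher in replicate 3, 9.9 to 14 CPM against 5.8 to 11.8 CPM, as were IRF7, the transcription factor that drives interferon-alpha genes (26.9 to 40.6 against 18.9 to 27.5 CPM), and MX1 (50.4 to 58.7 against 39.8 to 50.7 CPM). HERC5, the ligase that attaches ISG15, was lower, 62.3 to 80 against 72.5 to 95.6 CPM. These ranges overlapped. OAS3, IFITM2, IFITM3, OAS2 and TRIM22 were not called between replicate numbers (edgeR adjusted p = 0.199, 0.133, 0.669, 0.18 and 0.266).

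Further genes of the pathway were taken from lists outside the 46 members. Of 48 further interferon-stimulated genes, 40 were tested. With lnc-RTN4R-1 GapmeR2, 6 rose (GBP4, HLA-F, TAP2, PARP10, ZNFX1 and SHFL) and 0 fell, beside the 9.56% of all genes called and 4.31% called higher, with a median log2 fold change of 0.145 against 0.005 over all genes. With lnc-NKX2-3-1 GapmeR1, 5 rose and 4 fell, beside the 19.7% of all genes called, so that this count lay near the share over all genes. GBP4, an interferon-induced GTPase, stood apart from its controls in both, at 121 and 131 CPM with lnc-NKX2-3-1 GapmeR1 (2.54-fold) and 72 to 98.2 CPM with lnc-RTN4R-1 GapmeR2 (1.74-fold), against 47.3 to 56 CPM in the controls. It had 52.1 to 53.9 CPM with lnc-NKX2-3-1 GapmeR2 and 45.3 to 49.9 CPM with lnc-RTN4R-1 GapmeR1. HLA-F, a non-classical MHC class I gene, moved in opposite directions, 1.37-fold with lnc-RTN4R-1 GapmeR2 and 0.80-fold with lnc-NKX2-3-1 GapmeR1. DDX60, an RNA helicase, was the single gene of this list called in all GapmeR groups against medium (log2 0.43 ± 0.09, SE, edgeR adjusted p = 0.0147), with 9.15 and 9.54 CPM in medium and 12.5 to 13.7 CPM with NTC.

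Of the 11 receptor and signalling genes, 4 rose with lnc-NKX2-3-1 GapmeR1 (JAK1, IL10RB, IFNAR1 and IFNGR2), beside 8.14% of all genes called higher. IFNAR1 had 84.6 and 96.8 CPM there, against 66.6 to 73.9 CPM in the controls (1.30-fold). With lnc-RTN4R-1 GapmeR2, IFNGR2 rose and JAK1 fell, and with lnc-RTN4R-1 GapmeR1 IFNLR1 rose from between 1 and 28 reads per library. Of 22 nucleic acid sensors and adaptors, 19 were tested. With lnc-RTN4R-1 GapmeR2, 4 rose (MYD88, STING1, UNC93B1 and IRF3) and 0 fell, and with lnc-NKX2-3-1 GapmeR1 5 rose (STING1, CGAS, TLR7, TRAF6 and TBK1) and 1, TRAF3, fell, beside 9.56% and 19.7% of all genes called. STING1, the adaptor of cGAS, had 26.5 and 22.7 CPM with lnc-NKX2-3-1 GapmeR1 against 5.37 to 11.8 CPM in the controls (2.97-fold). Of 15 NF-κB targets tested, 1 rose (NFKBIA) and 2 fell (TRAF1 and CD40) with lnc-NKX2-3-1 GapmeR1, near the 19.7% of all genes called, and 0 were called with lnc-RTN4R-1 GapmeR2. Of 6 negative regulators tested, 1, PTPN2, rose with lnc-RTN4R-1 GapmeR1.

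Outside these lists, the genes whose 10 group means most resembled the mean of the 45 members were CCND2, PPP1R9B, ST6GALNAC6, PTGIR and RAB13, with Pearson r from 0.954 to 0.979 over 10 groups. This is a description of 10 group means.

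Markers of other cell types were followed beside these results, although all libraries came from cultures of the REH line. In bulk RNA, fewer cells of a type and less RNA per cell cannot be told apart. Of the 4 monocyte markers (CD14, CSF1R, LYZ and FCGR3A) 2 could be tested, and CSF1R rose with lnc-RTN4R-1 GapmeR2, lnc-RTN4R-1 GapmeR1 and lnc-NKX2-3-1 GapmeR1. The result of the other tested marker is not given here. No marker of this list had more than 46 reads in a library, so their sum can rest on a single gene. The summed level of the 4 was 0.793 to 1.52 CPM in the NTC and medium libraries. It was 2.9 to 3.75 CPM with lnc-RTN4R-1 GapmeR2, 2.23 to 3.05 CPM with lnc-RTN4R-1 GapmeR1 and 2.12 to 2.48 CPM with lnc-NKX2-3-1 GapmeR1. It was also above every control with lnc-ASTN1-1 GapmeR1 (1.55 to 2.42 CPM), lnc-TIMM21-5 GapmeR1 (1.66 to 2.18 CPM) and lnc-TIMM21-5 GapmeR2 (1.64 to 2.03 CPM). With lnc-NKX2-3-1 GapmeR2 (0.892 to 2.12 CPM) and lnc-ASTN1-1 GapmeR2 (1.21 to 1.66 CPM) it overlapped the controls. The part of these markers in the results was not tested. Of the 4 plasmacytoid dendritic cell markers, IRF8 was tested, with at most 209 reads in a library and no call with any GapmeR, while LILRA4 had at most 5, CLEC4C at most 1 and GZMB 0 reads. Of the 4 T cell markers none was tested, with CD3E at 1 to 11 reads, CD2 at up to 1, and CD3D and CD3G at 0 reads in all 27 libraries. Of the 4 natural killer cell markers, NKG7 was tested, at 9 to 35 reads and with no call with any GapmeR, while GNLY and KLRD1 had at most 5 and NCAM1 had 0 reads. Of the 10 B-cell precursor markers, 9 were tested, and VPREB1 had 0 reads in every library.

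Depth was 14627110 to 22750945 counted reads per library. The targeted lncRNAs were lower with their GapmeRs, lnc-TIMM21-5 at 0.0452 to 0.503 CPM against 1.08 to 2.19 CPM in controls and lnc-ASTN1-1 at 9.76 to 14.6 CPM against 23.3 to 27 CPM, with no overlap. Some members share exon bases with another gene on the same strand in GENCODE v44, whose reads the counting left out or could split. These were 23.9% of IRF9, 23.1% of IFI6, 21.1% of IFITM1 and 12.1% of IFIT2.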

How the data were processed

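Poly(A)-selected or ribosome-depleted (the labels and the study's methods differ), stranded libraries of REH cells were aligned by the authors with STAR to hg38. The deposited files hold raw counts of reads per gene, unnormalised, in 3 strand settings. The annotation release is not given in the sources used here. The fourth column, which held most of the stranded reads, was used, and symbols came from GENCODE v44. Genes passing edgeR's expression filter (minimum count 10) were TMM-scaled and fitted in 1 quasi-likelihood model of the 10 group means (edgeR 4.0.16, R 4.3.3), with Benjamini-Hochberg adjustment over 16268 genes and a threshold of 0.05. Scripts were tested on simulated data. DESeq2 1.42.0, other filters, scalings, controls and left-out libraries were alternatives. CPM are on TMM library sizes.

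No source used here says that a replicate number marks a shared day across groups, so the main model had no block, and the fit with the number as a block was an alternative. P-values measure the spread between treatments of 1 cell line. Members and lists were chosen with earlier results of these data known. Values are given for the 10 sentinels and the 12 further members with the smallest p-value among those called among groups, against controls or against medium. Other called members may be named with their fold change. Library values of HERC6, IFITM3 and ISG20, and the non-members shown by range, were chosen after their values were seen.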

Additional observations from a re-analysis of the deposited data

Results flagged for a closer look

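Differences between GapmeR1 and GapmeR2 of the same lncRNA are given here as log2(GapmeR1/GapmeR2), each tested in the edgeR fit with all 10 groups. For lnc-RTN4R-1, beside 9.09% of all genes called and 3.82% called lower, 11 members differed, all lower with GapmeR1. Of the antiviral RNA-binding and enzyme genes these were OAS3 (-0.6906, edgeR adjusted p = 1.15e-06), IFIT1 (-0.6361, adjusted p = 0.00453), IFIT3 (-0.4205, adjusted p = 0.00397), SAMD9L (-0.4043, adjusted p = 0.00671) and PARP14 (-0.2547, adjusted p = 0.032). Of the membrane and secreted proteins these were BST2 (-0.5491, edgeR adjusted p = 0.000207), IFITM3 (-0.4948, adjusted p = 0.0418), LGALS3BP (-0.4509, adjusted p = 0.000558) and IFITM2 (-0.4196, adjusted p = 0.00281). The others were TAP1 (-0.3838, edgeR adjusted p = 0.0019) and XAF1 (-0.2977, adjusted p = 0.0365).

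For lnc-NKX2-3-1, 17.8% of all genes differed, 6.71% higher and 11.1% lower with GapmeR1. The share of members that differed in either direction lay near this. Of the members, 7 were higher with GapmeR1. They were IRF1 (0.5082, edgeR adjusted p = 0.00321), IFIT3 (0.4823, adjusted p = 0.0014), OAS2 (0.3837, adjusted p = 0.000194), XAF1 (0.3118, adjusted p = 0.0285), DTX3L (0.2597, adjusted p = 0.0288), PARP14 (0.2392, adjusted p = 0.0476) and TRIM25 (0.2038, adjusted p = 0.0184). TRIM22 (-0.2744, edgeR adjusted p = 0.00545) and HERC6 (-0.4527, adjusted p = 0.0146) were lower. IFIT3, PARP14 and XAF1 differed for both lncRNAs, in opposite directions. No group had the 4 samples needed to test for a library far from the others.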

How the results depend on the processing

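Of 64 called gene results, 0 reversed under any alternative, and all 64 stayed called with DESeq2, with a filter of a mean of at least 10 counts and with the replicate block. Calls were lost for 15 of 64 without a low-count filter, 6 with unstranded counts, 7 with replicates 1 and 2 only and 1 with RLE scaling, for 10 of 30 with NTC as the only control, for 19 of 50 with the samples of the comparison only and for 121 of 736 with each library left out; the causes were not tested. The replicate numbers were not taken to pair the samples: deviations from the group means had a mean r of 0.263 over 109 pairs of same-numbered libraries and -0.13 over 218 other pairs, with r over 0.1 in 94 of the 109, and 24 of 27 libraries correlated best with their own number, a hint from the data and not from the design. With the number as a replicate block, more members were called: 2 for lnc-TIMM21-5 GapmeR1 (IFIT2 and ISG20), 18 for lnc-NKX2-3-1 GapmeR1 (11 higher and 7 lower, USP18 and ISG15 among them), 2 for its GapmeR2 (ISG20 and PARP12), 3 for lnc-RTN4R-1 GapmeR1 (IFITM1, ISG20 and HERC6), 23 for its GapmeR2 (22 higher, with IFIT1, IFIT2, OAS1 and PSMB8 among them, and HERC5 lower), 2 for any GapmeR against medium (IFIT2 and IRF1), 35 among the 10 groups, 41 between GapmeR1 and GapmeR2 (20 without the block) and 31 with both GapmeRs pooled (7 without), of which 2 were for lnc-TIMM21-5 (IFIT2 and IFI44), 16 for lnc-NKX2-3-1, 12 for lnc-RTN4R-1 and 1 for lnc-ASTN1-1 (OAS2). Throughout, counts between GapmeR1 and GapmeR2 and counts for both GapmeRs together are sums over the 4 lncRNAs. A member can therefore be counted again for another lncRNA. The block also raised the share of all genes called, to 26.3% for lnc-RTN4R-1 GapmeR2 and 35.8% for lnc-NKX2-3-1 GapmeR1. For the other blocked counts that share is not given here. Without a low-count filter the counts called were 1 for lnc-TIMM21-5 GapmeR1, 1 for lnc-NKX2-3-1 GapmeR2 and 2 for lnc-RTN4R-1 GapmeR1. They were 0 for lnc-ASTN1-1 GapmeR1 and 3 for any GapmeR against medium. With NTC only they were 0 for lnc-ASTN1-1 GapmeR1 and 2 for both GapmeRs together. With the samples of the comparison only they were 1 for lnc-RTN4R-1 GapmeR1, 0 for lnc-ASTN1-1 GapmeR1, 10 between GapmeR1 and GapmeR2 and 4 for both GapmeRs together. DESeq2 gave 11 for both GapmeRs together. With each library left out, counts ranged from 14 to 20 between GapmeR1 and GapmeR2, 30 to 33 by replicate number, 9 to 15 among the 10 groups, 5 to 9 for both GapmeRs together, 0 to 1 for lnc-ASTN1-1 GapmeR1, 4 to 11 for lnc-NKX2-3-1 GapmeR1 and 7 to 12 for lnc-RTN4R-1 GapmeR2, and stayed at 0 for the remaining comparisons with controls or medium. With 2 or 3 libraries a group, and 16 to 49 reads of USP18 per library, changes of low genes under 2-fold can be missed.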
